A study of Mus musculus with 6 samples.

Results

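Integrins are cell surface receptors built from an alpha and a beta subunit, and laminins are basement membrane proteins built from an alpha, a beta and a gamma chain. Integrins that contain beta 2 or beta 7, or alpha 4, are mainly carried by leukocytes and guide their adhesion and entry into tissue. Others are found on glia, neurons and vessels and bind laminins, collagens, fibronectin or latent TGF beta. In the brain, laminins lie in the vascular and meningeal basement membranes, and the laminin alpha 2 chain and the alpha 6 beta 1 integrin are known for their part in oligodendrocyte maturation.

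The genes were all those with a symbol of the form Itga or Itgb followed by a number or a single letter (or Itga2b), or Lama, Lamb or Lamc followed by a digit, that had a probe set annotated with that gene alone. There were 35 such genes among 22180: 25 integrin subunits, of which 8 were taken as leukocyte integrins and 17 as other integrins, and 10 laminin subunits. Where a gene had several probe sets, which was so only for Itgav, the brightest on average was used. Of 37 mouse genes in the RefSeq table with such symbols, 2 had no probe set of their own and were not analysed here. No filter on low values was applied, so all 35 entered every count.

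The study asked about astrocytes in early myelin repair. LPC, which strips myelin locally, was used to make brain lesions in mice aged 5 to 6 weeks, CID was injected 48 hours later to trigger astrocyte ablation, and the lesions were dissected 7 days after they were made. Both groups received LPC and CID, per the labels, and there was no unlesioned or uninjected group. The wild type group (3 arrays) had no transgene, and the transgenic group (3 arrays) carried a transgene for the removal of GFAP-positive astrocytes that do not divide; its promoter is not given in the sources used here. Each array holds the total RNA of 1 macrodissected lesion. Whether the lesions of a group were from separate animals is not given, and the p-values therefore cover the spread among these lesions, which may be technical.

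Values are log2 intensities after RMA, the normalization made by the authors, and differences are transgenic minus wild type. In whole tissue, fewer cells of a type and less RNA per cell cannot be told apart. The brain label was borne out by its markers: all 9 measured astrocyte, 8 myelin and 8 microglia genes of the marker lists had means at or above the median probe set. Xist and 3 Y-linked genes showed that all wild type arrays and transgenic replicate 2 were female and that transgenic replicates 1 and 3 were male, so that genotype and sex cannot be told apart on the latter. The arrays differed in myeloid, astrocyte, myelin and neuronal transcripts and in dim probe sets. The homeostatic microglia list averaged 8.79 in wild type replicate 1 and 7.49 to 7.71 elsewhere, and the astrocyte list averaged 8.22 in transgenic replicate 1 and 8.73 to 8.97 elsewhere. The myelin list was lower in the transgenic group, at 8.41 to 9.04 against 9.47 to 9.87. Genes with a mean below the median probe set lay, at the median, 0.11 under their own mean in transgenic replicate 2 and 0.09 above it in transgenic replicate 1.

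The upstream sequences of 3 leukocyte integrin genes are shown because Itgam and Itgax, which lie on the same chromosome and share the beta 2 partner, had lower means in transgenic lesions, whereas Itga4 had a higher one. Each is the run of 250 bases that ends just before the annotated start, 5′ to 3′ on the gene's strand, from RefSeq on GRCm38.p6, and capitals mark GAGGAA, the core of sites for ETS factors such as PU.1, on either strand.
Itgam (chr7:128062390-128062639, plus strand): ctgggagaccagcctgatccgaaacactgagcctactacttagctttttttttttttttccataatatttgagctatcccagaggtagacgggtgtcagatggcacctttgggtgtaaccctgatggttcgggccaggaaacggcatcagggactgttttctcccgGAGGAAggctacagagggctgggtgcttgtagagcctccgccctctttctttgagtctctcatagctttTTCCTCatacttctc
Itgax (chr7:128129300-128129549, plus strand): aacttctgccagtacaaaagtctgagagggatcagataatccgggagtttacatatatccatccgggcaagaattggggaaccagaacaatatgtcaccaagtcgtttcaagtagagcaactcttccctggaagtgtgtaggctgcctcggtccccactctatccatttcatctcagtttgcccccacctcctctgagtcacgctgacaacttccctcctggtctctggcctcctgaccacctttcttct
Itga4 (chr2:79255176-79255425, plus strand): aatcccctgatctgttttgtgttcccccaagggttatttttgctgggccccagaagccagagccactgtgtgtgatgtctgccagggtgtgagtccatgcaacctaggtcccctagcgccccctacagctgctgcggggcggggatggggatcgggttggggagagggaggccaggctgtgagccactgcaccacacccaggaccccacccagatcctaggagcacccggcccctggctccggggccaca

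The Itgam window held GAGGAA at 2 places, beginning 84 and 15 bases before the start, the latter on the other strand. The Itgax and Itga4 windows held none. For the 35 genes, any window on chromosome 18, where Lama3 lies, was left out, while the windows of all genes kept that chromosome. Windows were searched for 22 of the 35 genes, 25 in all. Most of the genes left without one, Itgb2, Itgal, Itgad and Itgae among them, had no window in the sequences available here. GAGGAA was in 13 of the 25 windows (52.0%) and in 23.3% of 32851 windows of all genes. Of the leukocyte integrins searched, Itgam, Itgax, Itga4 and Itgb7, only Itgam held it. The other windows with it were those of other integrins and laminins. Most of the 25 windows were richer in G and C than the median of all windows, 52.4%. The GC box GGGCGG, on either strand, was in 9 (36.0%) against 32.7%, and TATAAA in 0 against 12.4%. GAGGAA and GGGCGG did not overlap in the windows shown, and only those of Itgam and Itga4 held the GC box, once each. These matches are letters in a fixed window and say nothing of factor binding.

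Most subunits had somewhat lower means in transgenic lesions, but none passed the threshold. Of the 35 genes, 26 (74.3%) had lower and 9 had higher means, where 51.3% of all genes were lower and 48.7% higher, and the median difference was -0.13 against -0.01 over all genes. In limma with Benjamini-Hochberg adjustment over all probe sets, 0 of the 35 had an adjusted p under 0.05, as for all 22180 genes (0%), and the smallest adjusted p among them was 0.534. At an unadjusted p under 0.05 there was 1 (Itga7, higher), while 6.98% of all genes reached that level, 3.93% higher and 3.06% lower. Only Itgam differed by at least 1.5-fold, where 3.31% of all genes did. The groups did not overlap for 8 subunits (22.9%), 6 lower and 2 higher, against 15.4% of all genes, 7% lower and 8.38% higher. Median differences were -0.12 for leukocyte integrins, -0.14 for other integrins and -0.10 for laminins. The 95% intervals of 34 of the 35 differences included 0. After median centring of the arrays, the count of non-overlapping subunits was 4. These were Itga6, Itga7, Itgb4 and Itgal, the last of which was not among the 8. Itga9, Itgb1, Lama2, Lama4 and Lamb2 overlapped in that setting, for which the share of all genes was not counted.

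**Figure D1:**
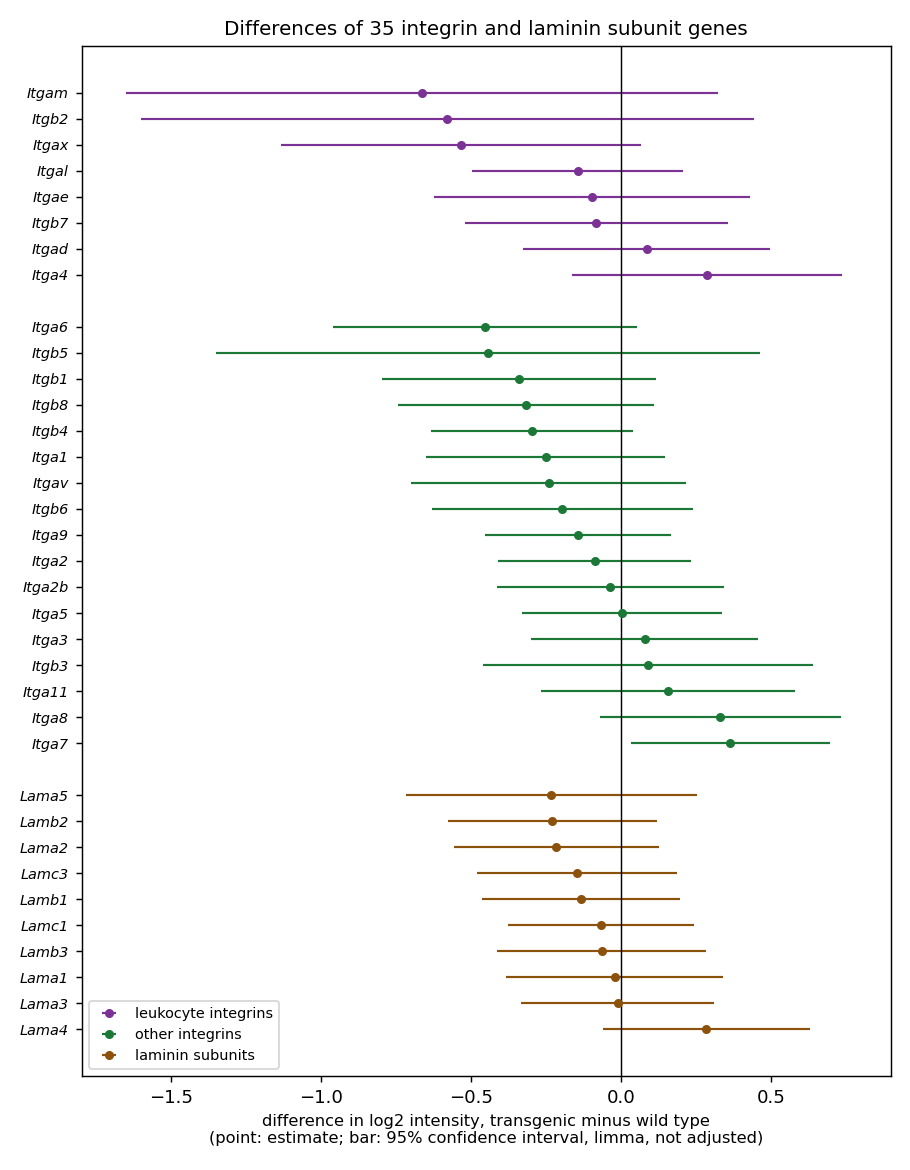
Difference in log2 intensity (transgenic minus wild type, x axis) of each of the 35 genes, with points for the limma estimates and bars for their 95% confidence intervals, in 3 colours for leukocyte integrins, other integrins and laminins. Only the bar of Itga7 (0.03 to 0.70) lies clear of 0, and the widest bars are those of Itgam, Itgb2 and Itgb5.

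Itgam, Itgb2 and Itgax, the beta 2 integrin subunits best known from myeloid cells, had the 3 most negative differences of the 35. Itgb2, the common beta 2 chain (CD18), read 8.30, 7.61 and 6.47 in wild type replicates 1 to 3 and 7.23, 6.83 and 6.59 in transgenic replicates 1 to 3. The groups overlapped: wild type replicate 3 was the lowest of the 6 arrays and wild type replicates 1 and 2 were the highest. The difference was -0.58 (SE 0.44, adjusted p 0.752 in limma), a 1.49-fold difference. Leaving out the highest array, wild type replicate 1, made it -0.16. Leaving out the lowest, wild type replicate 3, made it -1.07 with groups that did not overlap (unadjusted p 0.0096, adjusted p 0.698 in limma).

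Itgam, the alpha M chain (CD11b) of microglia, macrophages and granulocytes, read 8.32, 6.81 and 6.72 in wild type replicates 1 to 3 and 6.92, 6.55 and 6.38 in transgenic replicates 1 to 3. A single array, wild type replicate 1, lay 1.40 above the next. The difference of -0.66 (SE 0.42, adjusted p 0.700 in limma) was -0.15 without that array. The homeostatic microglia list was high on the same array, and all 8 of its measured genes had negative differences, with a median of -0.27. On the other arrays the list was not lower in transgenic lesions. It averaged 7.50 and 7.49 in wild type replicates 2 and 3 and 7.71, 7.53 and 7.51 in transgenic replicates 1 to 3.

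Itgax, the alpha X chain (CD11c) of dendritic cells and of activated microglia around myelin debris, read 5.68, 5.75 and 5.09 in wild type replicates 1 to 3 and 5.22, 4.54 and 5.16 in transgenic replicates 1 to 3. Wild type replicates 1 and 2 were high, transgenic replicate 2 was low and the other 3 arrays lay together. The difference was -0.53 (SE 0.26, adjusted p 0.605 in limma), and its 95% interval ran from -1.14 to 0.07. Without transgenic replicate 2 it was -0.32, without wild type replicate 1 it was -0.45 and among female arrays alone, where transgenic replicate 2 is the only transgenic lesion, it was -0.97. The mean of Itgax was below the median probe set, in the range where transgenic replicate 2 read low across genes; the part of this in the result was not tested.

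The phagocyte list averaged 9.38, 8.58 and 7.74 in wild type replicates 1 to 3 and 9.11, 7.62 and 7.36 in transgenic replicates 1 to 3, the same order of arrays as for Itgam. Itgam, Itgb2 and Itgax were each lower in transgenic replicate 1 than in wild type replicate 1, by 1.40, 1.07 and 0.46. Between these 2 arrays the phagocyte list average was lower by 0.27 and the homeostatic microglia list average by 1.08. The part of either list in the integrin values was not tested. Of the 9 genes of the phagocyte list, 7 had negative and 2 positive differences, with a median of -0.48.

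**Figure D2:**
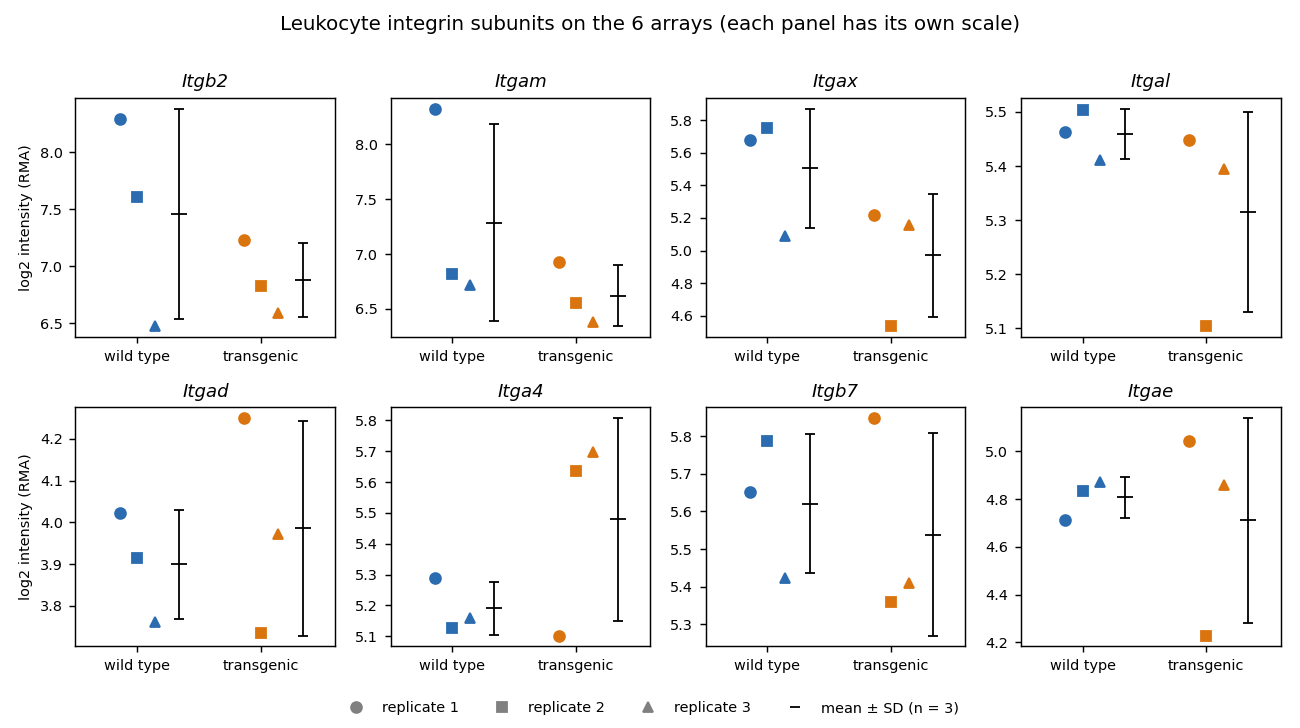
Log2 intensity of the 8 leukocyte integrin subunits in wild type (blue) and transgenic (orange) lesions, with 1 symbol per replicate number and the mean ± SD of 3 arrays in black; the y axes differ between panels and do not start at 0. Wild type replicate 1 stands apart for Itgam, at 8.32, and transgenic replicate 2 is the lowest array for 5 of the 8.

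The alpha chains of lymphocytes and of smaller macrophage subsets had small differences. Itgal, the alpha L chain (CD11a) of lymphocytes and other leukocytes, read 5.46, 5.50 and 5.41 in wild type replicates 1 to 3 and 5.45, 5.10 and 5.39 in transgenic replicates 1 to 3. Only transgenic replicate 2 was low, and the difference was -0.14 (SE 0.15). Itgad, the alpha D chain of some macrophages, read 4.02, 3.91 and 3.76 against 4.25, 3.74 and 3.97, a difference of 0.09 (SE 0.18) with overlapping groups. Both lay below the median probe set, where without detection calls an equal value cannot be read as equal expression. The T and NK cell list, from 4.92 to 5.12 on wild type arrays and from 4.68 to 5.23 on transgenic ones, had 4 genes with lower and 4 with higher means, and 7 of its 8 genes were also below the median probe set.

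The mean of Vcam1, named after its values were seen, was lower in transgenic lesions. Itga4, the alpha 4 chain by which lymphocytes and monocytes bind VCAM1 on inflamed vessels, had a higher mean there. It read 5.29, 5.13 and 5.16 in wild type replicates 1 to 3 and 5.10, 5.64 and 5.70 in transgenic replicates 1 to 3. Transgenic replicates 2 and 3 were the highest arrays and transgenic replicate 1 was the lowest, so the groups overlapped. The difference was 0.29 (SE 0.19, adjusted p 0.716 in limma); it was 0.48 without transgenic replicate 1 (unadjusted p 0.012) and 0.18 without transgenic replicate 3. A fit with array weights, which rested mostly on transgenic replicate 3 in its group, gave 0.49 (adjusted p 0.045 in limma); 4.45% of all genes were called in that fit. The monocyte and border macrophage list averaged 5.04 to 5.16 in wild type lesions and 5.46, 4.91 and 5.15 in transgenic replicates 1, 2 and 3, highest on the array where Itga4 was lowest. Of its 9 genes, 6 were below the median probe set, and genes in that range as a whole also read highest in transgenic replicate 1 and lowest in transgenic replicate 2. The cortical neuron list was high on the same arrays as Itga4, with 8.27 and 7.94 in transgenic replicates 2 and 3 and 7.48 to 7.55 on the other 4, and its part in the result was not tested.

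The beta 7 group, which directs lymphocytes to mucosal tissue, also had small differences. Itgb7, the beta 7 chain, read 5.65, 5.79 and 5.42 in wild type replicates 1 to 3 and 5.85, 5.36 and 5.41 in transgenic replicates 1 to 3, a difference of -0.08 (SE 0.19). Itgae, the alpha E chain (CD103) of tissue-resident T cells, read 4.71, 4.84 and 4.87 against 5.05, 4.23 and 4.86, a difference of -0.10 (SE 0.22). For both, transgenic replicate 1 was the highest and transgenic replicate 2 the lowest of all arrays. The mean of Itgae lay below the median probe set, where genes as a whole showed that order, and the mean of Itgb7 lay above it, where they showed the opposite one.

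Among receptors for laminin, 2 alpha chains had differences of opposite sign. Itga7, a laminin receptor known from muscle and vessel walls, read 5.82, 6.00 and 5.81 in wild type replicates 1 to 3 and 6.33, 6.12 and 6.28 in transgenic replicates 1 to 3. Every transgenic array lay above every wild type array. The difference of 0.37 (SE 0.14, 1.29-fold) had an unadjusted p of 0.035 and an adjusted p of 0.534 in limma. Leaving out single arrays gave unadjusted p-values from 0.022 to 0.107. Among female arrays alone it was 0.24 (unadjusted p 0.230 in limma with sex as a covariate). The pericyte and smooth muscle list, whose cells are known to carry Itga7, averaged between 6.11 and 6.34 on wild type arrays and between 6.07 and 6.26 on transgenic ones. The average of the fibroblast and leptomeninges list was, like Itga7, higher in every transgenic array, at 6.83 to 6.89 against 6.30 to 6.75. Of its 9 genes, 5 had higher and 4 lower means, with a median difference of 0.035 and a mean of 0.38. The part of this list in the result was not tested.

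Itga6, the laminin receptor chain of oligodendrocyte lineage cells, endothelium and ependyma, read 7.26, 6.59 and 6.60 in wild type replicates 1 to 3 and 6.32, 6.23 and 6.54 in transgenic replicates 1 to 3. The groups did not overlap, by a margin set by wild type replicate 2 and transgenic replicate 3, which differed by 0.055. Wild type replicate 1 was far above the rest. The difference was -0.45 (SE 0.22, adjusted p 0.602 in limma) and was -0.23 without that array.

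The beta partners of alpha 6 had lower means as well. Itgb4, its partner in hemidesmosomes and in brain endothelium, read 6.08, 6.06 and 6.04 in wild type replicates 1 to 3 and 5.64, 5.70 and 5.95 in transgenic replicates 1 to 3. The wild type arrays were within 0.04 of each other and all transgenic arrays lay below them. The difference was -0.30 (SE 0.14, adjusted p 0.606 in limma). Itgb1, the beta 1 chain shared by most matrix receptors, read 8.17, 7.63 and 7.60 against 7.34, 7.60 and 7.44. Its groups did not overlap, but wild type replicate 3 and transgenic replicate 2 differed by only 0.005. The difference was -0.34 (SE 0.19, adjusted p 0.663 in limma) and -0.15 without wild type replicate 1. The remaining laminin receptor chain, Itga3, read 5.64, 5.82 and 5.47 against 5.56, 5.88 and 5.73, a difference of 0.08 (SE 0.16).

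**Figure D3:**
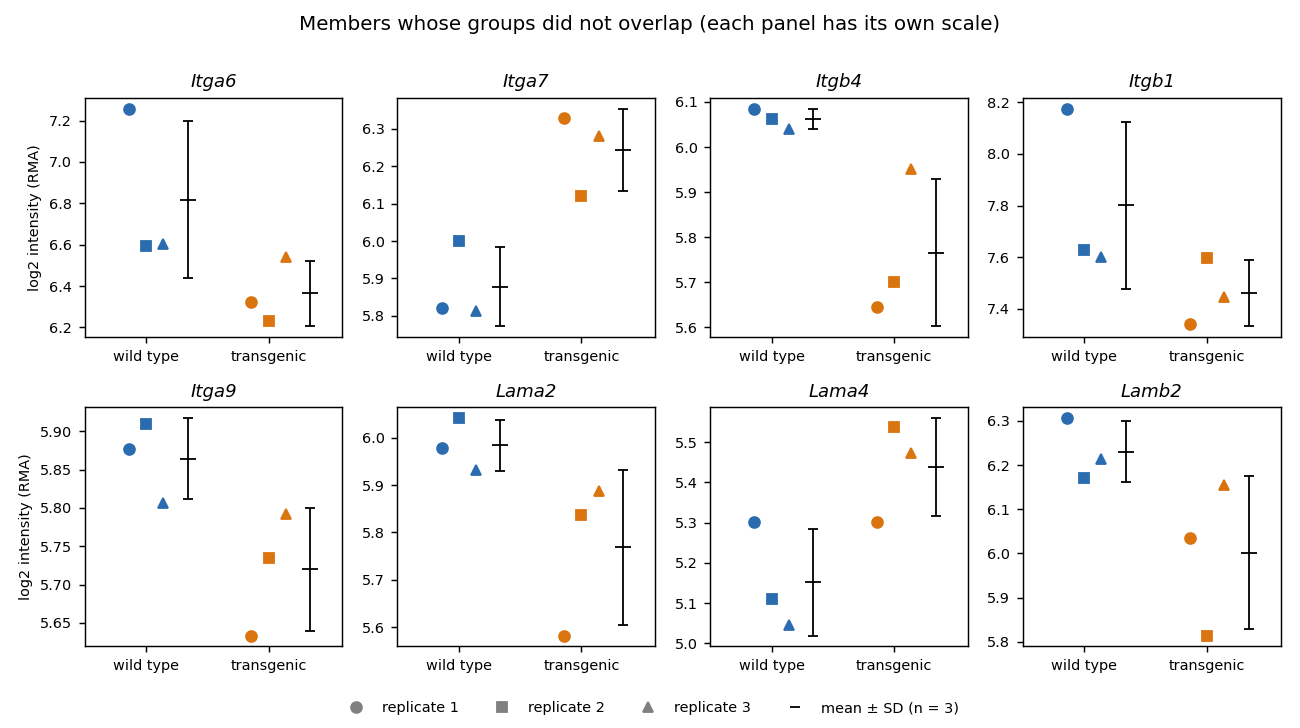
Log2 intensity of the 8 integrin and laminin genes whose groups did not overlap, in wild type (blue) and transgenic (orange) lesions, with 1 symbol per replicate number and the mean ± SD of 3 arrays in black; the y axes differ between panels and do not start at 0. Itga7 and Lama4 are higher in all transgenic arrays and the other 6 are lower, with Lama4 separated by 0.001 and Itgb1 by 0.005. After median centring (not shown), only Itga6, Itga7 and Itgb4 of these 8 stayed apart.

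The alpha V integrins, which astrocytes, microglia and vessels use to bind vitronectin or to release active TGF beta, had lower means in part. Itgb8, the chain by which alpha V on astrocytes activates TGF beta, read 8.13, 7.82 and 7.73 in wild type replicates 1 to 3 and 7.34, 7.60 and 7.79 in transgenic replicates 1 to 3. Transgenic replicate 3 lay above wild type replicate 3, so the groups overlapped, and the difference was -0.32 (SE 0.18, adjusted p 0.666 in limma). It was -0.20 without wild type replicate 1 and also without transgenic replicate 1. Itgav, the alpha V chain itself, read 8.02, 7.92 and 7.97 against 7.33, 7.96 and 7.89. Only transgenic replicate 1 was low, and the difference of -0.24 (SE 0.20) was -0.04 without it. The dimmer probe set of Itgav had a difference of 0.10, and the mean of both probe sets had one of -0.07. That dimmer probe set read highest, at 5.42, in transgenic replicate 1. The astrocyte list was at its lowest, 8.22, on that same array; its part in the result was not tested.

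The other beta partners of alpha V were highest in wild type replicate 1. Itgb5, a vitronectin receptor chain used by phagocytes, read 8.48, 7.29 and 6.99 in wild type replicates 1 to 3 and 7.52, 6.88 and 7.03 in transgenic replicates 1 to 3. The difference of -0.44 (SE 0.39) was 0.00 without wild type replicate 1, and leaving out wild type replicate 3 made it -0.74. Itgb3, the chain of platelets and of activated vessels, read 6.19, 5.41 and 5.62 against 6.04, 5.87 and 5.59, a difference of 0.09 (SE 0.23). Itgb6, an epithelial chain, lay between 4.81 and 4.93 on all arrays but transgenic replicate 2, at 4.30, with a difference of -0.19 (SE 0.19) that was -0.02 without that array. With Itgb1 and Itgb8, all 5 of these beta chains were highest in wild type replicate 1, as were 13 of the 35 genes (37.1%) and 14.9% of all genes.

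**Figure D4:**
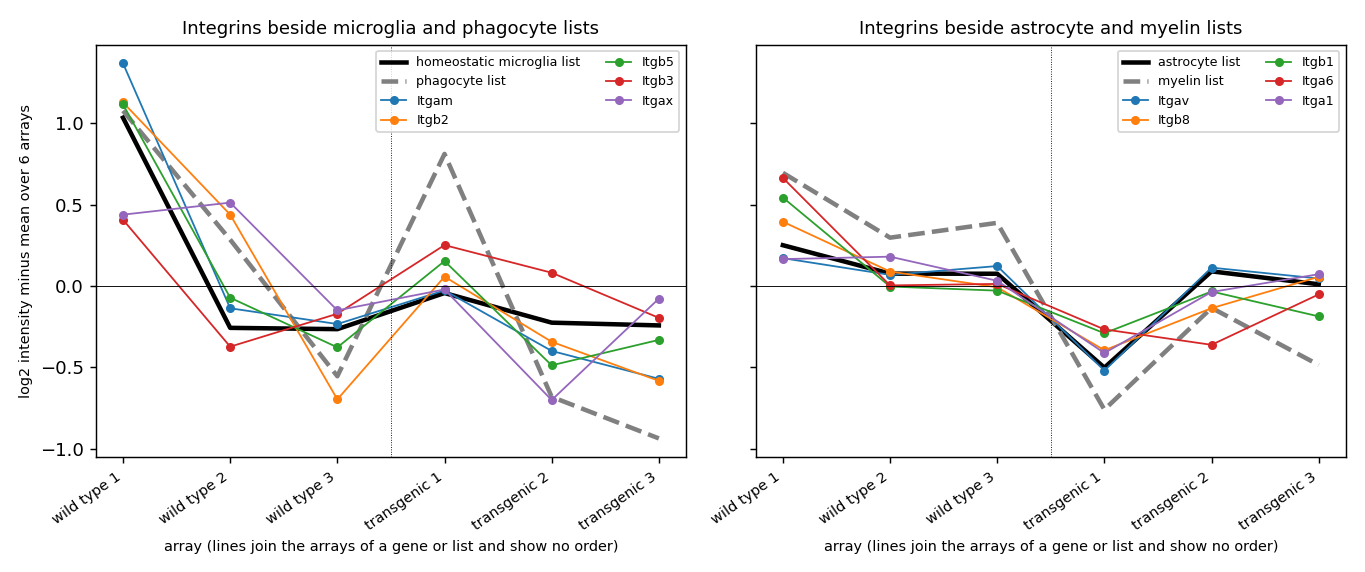
Log2 intensity of selected integrins on each array after subtraction of the gene's mean over the 6 arrays, beside the averages of marker lists treated in the same way (thick lines). On the left, Itgam, Itgb2 and Itgb5 peak with the microglia list in wild type replicate 1, and on the right Itgav and Itga1 are lowest with the astrocyte list in transgenic replicate 1. For Itgav the brighter probe set is drawn, and the other one (not shown) read highest on that array.

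Genes encoding latent TGF beta and its carriers, the ligands that alpha V integrins act on, had mostly lower means by small amounts. Of 8 measured, 6 had lower and 2 higher means, with a median difference of -0.11, where 51.3% of all genes were lower. An unadjusted p under 0.05 in limma was reached by 0 of the 8, against 6.98% of all genes. The 4 with the smallest p were Ltbp3 (difference -0.22), Ltbp1 (0.21), Tgfb2 (0.22) and Lrrc32 (-0.16). Tgfb1 differed by -0.25 (SE 0.29).

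Itga8, which pairs with beta 1 and binds nephronectin and other RGD proteins, read 5.43, 5.57 and 5.32 in wild type replicates 1 to 3 and 5.50, 5.83 and 5.98 in transgenic replicates 1 to 3. Transgenic replicates 2 and 3 were the highest arrays, and transgenic replicate 1 lay within the wild type range. The difference was 0.33 (SE 0.17, adjusted p 0.631 in limma) and 0.47 without transgenic replicate 1; with array weights, where 4.45% of all genes were called, it was 0.50 (adjusted p 0.041 in limma). Npnt, which encodes nephronectin, was high on the same arrays, at 6.36, 6.25 and 6.01 in wild type and 6.26, 6.88 and 6.92 in transgenic replicates 1 to 3, a difference of 0.48 (SE 0.22, adjusted p 0.586 in limma). These were also the arrays with the highest cortical neuron list.

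Itga5, the fibronectin receptor chain of vessels and migrating cells, and Itga2b, the platelet chain, were near equal between the groups, with differences of 0.00 (SE 0.14, 95% interval -0.33 to 0.34) and -0.03 (SE 0.16, -0.41 to 0.34). The receptors for collagen were mixed. Itga1, a collagen receptor chain of vessels and fibroblasts, read 5.83, 5.85 and 5.70 in wild type replicates 1 to 3 and 5.25, 5.63 and 5.74 in transgenic replicates 1 to 3, with transgenic replicate 1 apart. Its difference was -0.25 (SE 0.17) and -0.11 without that array. Itga2 differed by -0.09 (SE 0.14) and Itga11, a fibroblast chain, by 0.16 (SE 0.18).

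Itga9, a receptor chain for tenascin C and VCAM1, read 5.88, 5.91 and 5.81 in wild type replicates 1 to 3 and 5.63, 5.73 and 5.79 in transgenic replicates 1 to 3. All transgenic arrays were lower, with a difference of -0.14 (SE 0.13, adjusted p 0.800 in limma). Tnc and Vcam1, named after their values were seen, were also lower in every transgenic array, with differences of -0.30 (SE 0.15) and -0.23 (SE 0.15). In the list of integrin ligands other than laminins, 11 of 19 had lower and 8 higher means. The groups did not overlap for 7 of the 19, 4 lower and 3 higher, against 15.4% of all genes. The smallest p belonged to Thbs4, a thrombospondin, at -1.12 (SE 0.18, adjusted p 0.243 in limma), the only one of the 19 with an unadjusted p under 0.05, where 6.98% of all genes reached that level. Npnt, Ccn3 (0.41), a matricellular protein, and Fgg (-0.50), a fibrinogen chain, followed.

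Laminin genes varied less than the integrins. The range over the 6 arrays had a median of 0.38 for laminins, 0.59 for other integrins and 0.71 for leukocyte integrins, against 0.59 over all genes. Of the 10 laminins, 9 had lower means, with differences between -0.23 and -0.01, and Lama4 was higher.

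Lama2, the alpha 2 chain of the basement membrane at astrocyte end-feet, read 5.98, 6.04 and 5.93 in wild type replicates 1 to 3 and 5.58, 5.84 and 5.89 in transgenic replicates 1 to 3. All transgenic arrays were lower, transgenic replicate 1 most so. The difference was -0.22 (SE 0.15, adjusted p 0.720 in limma) and -0.12 without that array, which also had the lowest astrocyte list.

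Lama4, the alpha 4 chain of endothelial basement membrane, read 5.30, 5.11 and 5.04 against 5.30, 5.54 and 5.47. The groups were separated by 0.001, between wild type replicate 1 and transgenic replicate 1, and the difference was 0.29 (SE 0.15, adjusted p 0.630 in limma). The endothelial list averaged 5.80 to 5.95 in wild type and 5.65, 5.90 and 6.11 in transgenic replicates 1, 2 and 3. The fibroblast list averaged 6.30 to 6.75 and 6.83 to 6.89, higher in all transgenic arrays. Its genes were mixed, with 5 higher and 4 lower means and a median difference of 0.035. The part of these cells in the Lama4 result was not tested. Lama5, the other endothelial alpha chain, read 5.37, 5.47 and 5.24 against 5.31, 4.70 and 5.36, with only transgenic replicate 2 low, and differed by -0.23 (SE 0.21), or by -0.02 without that array.

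Of the beta and gamma chains that join these alpha chains, Lamb2 had the most negative difference. Lamb2, the beta 2 chain of vessels and synapses, read 6.31, 6.17 and 6.21 in wild type replicates 1 to 3 and 6.04, 5.81 and 6.16 in transgenic replicates 1 to 3. All transgenic arrays were lower, transgenic replicate 3 by only 0.015, and the difference was -0.23 (SE 0.15, adjusted p 0.709 in limma), or -0.14 without transgenic replicate 2. Lamb1, the alternative beta chain, differed by -0.13 (SE 0.14). Lamc1, the gamma chain of nearly all brain laminins, was the steadiest of the 35 genes, with all arrays between 6.58 and 6.77 and a difference of -0.07 (SE 0.13, 95% interval -0.38 to 0.25). Lamc3 differed by -0.14 (SE 0.14).

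Laminin chains of epithelia and of early development showed no difference beyond their spread. Lamb3, of skin laminin, differed by -0.06 (SE 0.15), Lama3 by -0.01 (SE 0.14) and Lama1, the chain of embryonic and pial basement membrane, by -0.02 (SE 0.15). After median centring, Lama1 was 0.03 and Lama3 0.04 higher in transgenic lesions. None of the 3 had groups that were apart.

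**Figure D5:**
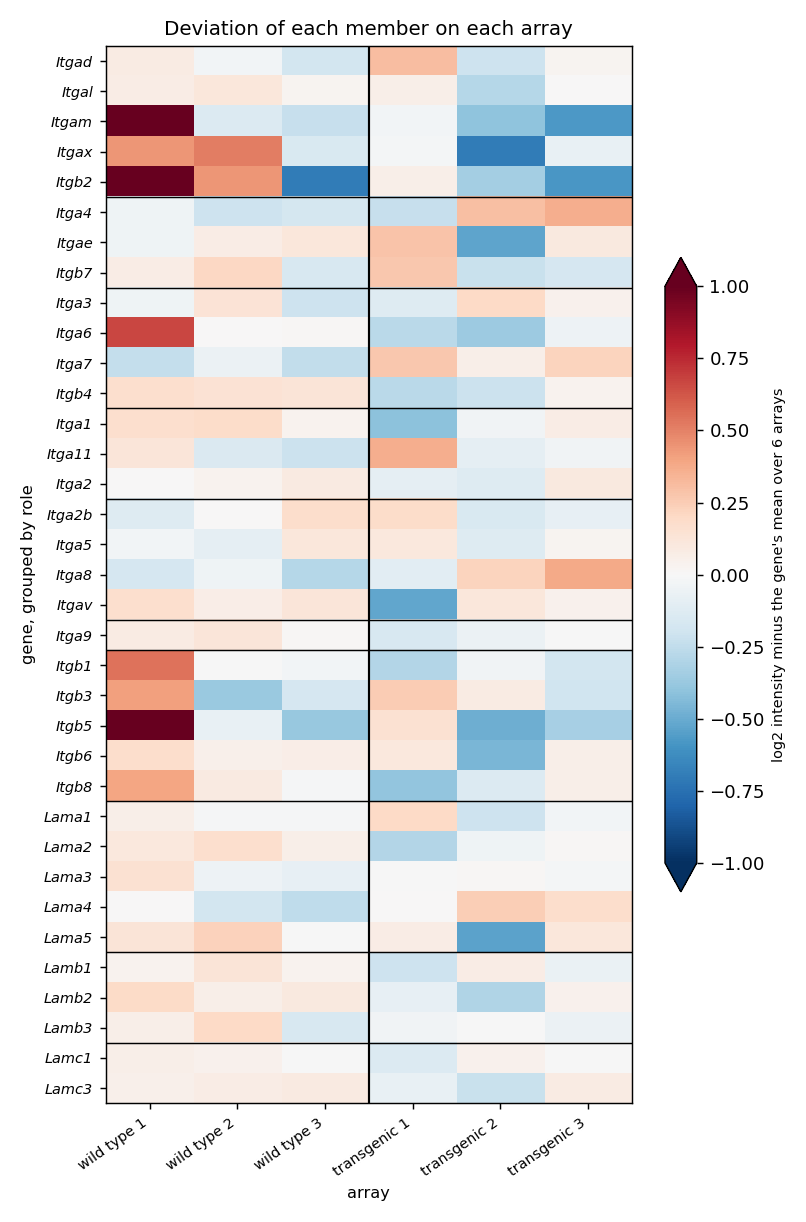
Log2 intensity of each of the 35 genes on each array minus the gene's mean over the 6 arrays (colour, cut at -1 and 1), with genes grouped by role and a vertical line between wild type and transgenic arrays. Wild type replicate 1 is the highest array for 13 genes and transgenic replicate 2 the lowest for 15.

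Partners of laminin in the basement membrane had small differences. Of 12 measured, 8 had lower and 4 higher means, with a median difference of -0.04. An unadjusted p under 0.05 in limma was reached by 0, against 6.98% of all genes. The groups were apart for 0, against 15.4% of all genes. With lists this short, counts of 0 do not set them apart from all genes. Col18a1 (-0.19), Fbln1 (-0.17), Ntn4 (-0.16) and Fbln2 (-0.19) had the smallest p. Among other laminin receptors, 7 of 10 had lower means, the median was -0.08 and 0 had an unadjusted p under 0.05, against 6.98% of all genes. Sgcb (-0.17), Utrn (-0.24), Dmd (0.15) and Sgce (-0.10) had the smallest p. Dag1, which encodes dystroglycan, differed by 0.08 (SE 0.19).

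Inside the cell, integrins are linked to actin and to kinases by adaptors. Of 23 measured, 19 had lower and 4 higher means, with a median of -0.18; the groups were apart for 6, 5 lower and 1 higher, against 7% of all genes lower and 8.38% higher. Tns3 and Parva had an unadjusted p under 0.05, 2 of 23 against 6.98% of all genes. Tns3, a tensin abundant in new oligodendrocytes, read 7.09, 6.80 and 6.71 in wild type replicates 1 to 3 and 5.87, 6.48 and 6.29 in transgenic replicates 1 to 3, a difference of -0.65 (SE 0.20, adjusted p 0.488 in limma). Parva, a parvin that binds integrin-linked kinase, had a difference of 0.40 (SE 0.16, adjusted p 0.545 in limma). Bcar1, a scaffold of focal adhesions, differed by -0.34 and Apbb1ip, the Rap1 effector that activates beta 2 integrins in leukocytes, by -0.73 (SE 0.43). Apbb1ip had the profile of Itgam, at 7.70 in wild type replicate 1 and 5.67 to 6.39 elsewhere.

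Surface proteins that associate with integrins showed the most negative median of the partner lists, -0.43 over 9 genes, 8 of them lower. Tspan2, a tetraspanin of oligodendrocytes, differed by -1.02 (SE 0.17, adjusted p 0.261 in limma), Cd82 by -0.62 (SE 0.16, 0.414) and Cd81 by -0.43 (SE 0.16, 0.528), each lower in every transgenic array and each with an unadjusted p under 0.05. These 3 of 9 stand against 6.98% of all genes at that level and 15.4% with groups apart. Cd9 differed by -0.59 (SE 0.27). Tspan2 and Cd82 are known from oligodendrocytes, and the myelin list was lower on the same 3 arrays, with a median difference of -0.86 and all 8 genes apart; its part in these values was not tested.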

How the data were processed

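Per the submitters' processing notes, the deposited intensities came from RMA, run in Affymetrix Expression Console, with 1 column per lesion and 41345 probe sets. They were on a linear scale (3.73 to 15793), so log2 was taken with no pseudocount. The genome build, software versions and scan dates were not given in the sources used here, nor were detection calls. Of the probe sets, 23521 had 1 symbol in the platform annotation, 1814 several and 16010 none; only the first kind was named. All probe sets entered limma 3.58.1 (R 4.3.3; lmFit, eBayes, two-sided, Benjamini-Hochberg, threshold 0.05) without covariates, over 3 arrays per group. Each SD is over the 3 arrays of a group and each SE is from the fit, with a median SE of 0.19. Checked on simulated data with 41345 probe sets, limma recovered 28 of 100 changed by 1 and 94 of 100 changed by 2 on the log2 scale, with 6 false calls. The genes, lists and tests were chosen with earlier results of these data known. All subunits could be named; values of every array were given for leukocyte integrins, for subunits with groups apart or an unadjusted p under 0.05, and for partners in their complexes, and up to 4 genes per partner list were named by smallest p, with some further genes (Tgfb1, Vcam1, Tnc, Dag1) added after their values were seen. Marker lists leave out the integrins.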

Additional observations from a re-analysis of the deposited data

How the results depend on the processing

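The direction of 20 of the 35 differences was the same in all alternatives run on each (up to 16: 6 that leave out an array and 10 others), and that of 15 turned in at least 1, 4 of them only by leaving out an array. With 3 arrays a group, only large differences can be called, and dim subunits have no detection call. The count at an adjusted p under 0.05 was 0 in every alternative but array weights, where it was 2 (differences of 0.49 for Itga4 and 0.50 for Itga8; 4.45% of all genes were called), in a fit that gave transgenic replicate 3 a weight of 7.67 and the others 0.26 to 1.56. The count at an unadjusted p under 0.05 was 2 with the offset of 16 before log2, 8 with array weights (23% of all genes), 4 with sex as a covariate (16.6%) and 2 without moderation of variances; without single arrays it ranged from 0 (without wild type replicate 1) to 3 (without transgenic replicate 1), with 2 without wild type replicate 3. With the replicate number as a block it was 0. Over all probe sets, the deviations of same-numbered arrays showed no pairing (correlations 0.01, -0.10 and -0.07), which does not settle it for single genes. The block changed no call at the adjusted threshold. It lowered the SE of Itgam and Itgb2 to 0.27 each and of Itgb5 to 0.24 (unadjusted p 0.052, 0.075 and 0.112 in limma). The SE of Itga7 rose to 0.18 (unadjusted p 0.087 in limma). Non-overlapping subunits numbered 4 after median centring and 10 to 15 without single arrays, where fewer arrays overlap less. Of these counts, 15 came without wild type replicate 3 and 14 with transgenic replicate 1 left out. The share of all genes was not counted in these settings, nor with the offset, without moderation or with the block. Counts from those settings therefore cannot be set against a background. The median of leukocyte integrins was -0.58 without dim probe sets, which leaves 3 of the 8, and -0.47 with sex as a covariate, and ranged from -0.25 to -0.015 without single arrays. The median of other integrins ranged from -0.18 to -0.043, the latter without transgenic replicate 2. Laminins had a median of -0.038 with array weights and -0.14 to -0.074 without single arrays. Directions turned with quantile normalization for Itga2b (0.022), Lama1 (0.035) and Lama3 (0.038), with median centring for Itga2b (0.019), Lama1 (0.033) and Lama3 (0.043), with sex as a covariate for Itga11 (-0.014), Itga5 (-0.13), Itgad (-0.16), Lama3 (0.0040), Lamb1 (0.0070) and Lamc1 (0.0075) and with array weights for Itga2 (0.039), Itgae (0.033) and Itgb3 (-0.083). Without single arrays, ranges crossed 0 for Itga2b (-0.14 to 0.044), Itga3 (-0.0050 to 0.17), Itga5 (-0.048 to 0.067), Itgad (-0.045 to 0.21), Itgae (-0.26 to 0.14), Itgb3 (-0.073 to 0.32), Itgb5 (-0.74 to 0.0027), Itgb7 (-0.24 to 0.0085), Lama1 (-0.13 to 0.076), Lama3 (-0.056 to 0.063) and Lamb3 (-0.16 to 0.020). The cause of these changes was not tested.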

Other observations

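The second probe set of Itgav, which the choice of the brightest probe set left out, did not follow the one reported. It read 5.17, 4.94 and 5.25 in wild type replicates 1 to 3 and 5.42, 5.06 and 5.16 in transgenic replicates 1 to 3, a difference of 0.10 (SE 0.16), and it read highest in transgenic replicate 1, where the brighter one read lowest. Rasgrp2, an activator of integrins in platelets that is also expressed in striatal neurons, read 5.36, 6.64 and 7.31 in wild type replicates 1 to 3 and 5.44, 6.13 and 5.70 in transgenic replicates 1 to 3. The striatal neuron list followed the same arrays, with 5.99, 8.16 and 8.79 in wild type and 6.12, 6.53 and 6.11 in transgenic replicates 1 to 3.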
